A study of Mus musculus with 6 samples.

Results

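Basal HSF1 regions, as the term is used here, are stretches of the mouse genome at which a heat shock factor 1 (HSF1) peak was listed before any heat shock. They were chosen by the deposited peak calls. Peaks of all HSF1 lists that share at least 1 base were merged, and a merged region was kept if it held a peak from cells at 33 °C. Regions that start between 21 and 24 Mb on chromosome 13 were left out. The rule gave 307 basal regions among 6577 merged regions, and 46 further regions with a 33 °C peak lay in the omitted window. Of the 6498 regions outside the window, the remaining 6191 held a peak at 42 °C only.

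The data are chromatin immunoprecipitation sequencing (ChIP-seq) of HSF1 in 2 striatal cell lines from embryonic mice, each grown at 33 °C or held at 42 °C for 6 hours. STHdhQ7/Q7 cells (genotype HdhQ7/Q7, wild type, called Q7) and STHdhQ111/Q111 cells (genotype HdhQ111/Q111, knock-in, called Q111) both grew with serum and G418. Each combination of line and temperature is 1 library and each genotype is 1 line, so a difference between libraries has no replicate check and no test between groups was possible. Genotype, line and library are thus confounded, and their parts in a difference cannot be told apart. The IgG control libraries were not analysed here, so how many basal regions also stand out in them was not measured.

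HSF1 is the transcription factor behind the heat shock response. In unstressed cells it is held mostly as an inactive monomer in contact with chaperones. On heating it forms trimers that bind heat shock elements, which are inverted repeats of a short GAA-containing unit, and it switches on genes for chaperones and other proteins that refold or remove damaged protein. Some binding is also known in unstressed cells. Huntingtin with an expanded polyglutamine tract, as encoded by the Q111 allele, misfolds and is the cause of Huntington's disease, in which striatal neurons are lost early. The striatal lines were made with a temperature-sensitive large T antigen, the usual reason for growing such cells at 33 °C.

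Every peak carries a score from the authors' peak caller, read here as a p-value on a logarithmic scale, so a higher score means a clearer peak. The score depends on read depth, which is unknown for all 4 libraries. It was therefore compared only among regions of 1 list. A percentile is the share of a list's peaks that score no higher, and ranks from lists of different lengths do not show a change between them. Where a region held several peaks of 1 library, the highest-scoring one stands for it. Positions are on build mm9 and counted from 1. No mm9 genome or annotation was used here, so regions are given by position, without gene names or sequence.

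Basal occupancy was shared between the lines in 137 regions, or 44.6% of the 307 (95% Wilson interval 39.2 to 50.2). A further 74 regions held a 33 °C peak in Q7 cells only and 96 in Q111 cells only. These counts follow from the lists that chose the regions and are a description. Most basal regions were also occupied after heat shock: 264, or 86.0% (81.7 to 89.4), held a 42 °C peak in at least 1 line, and 231, or 75.2% (70.1 to 79.7), in both lines. The commonest combination, with 135 regions or 44.0% (38.5 to 49.6), was a peak in all 4 libraries.

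**Figure D1:**
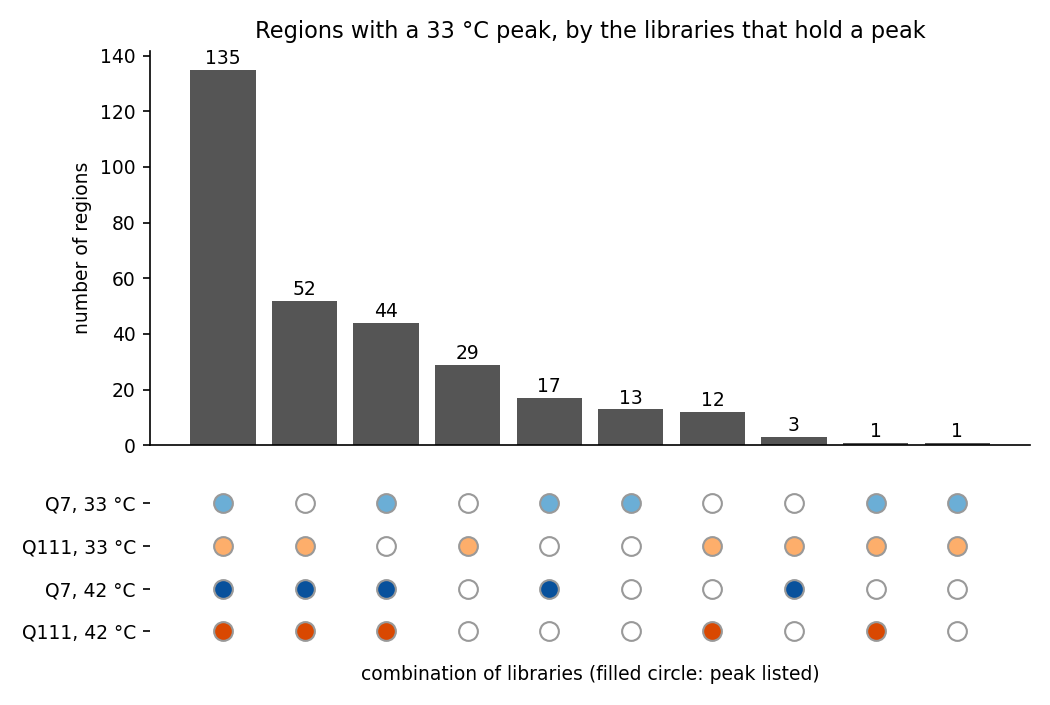
The bars give the number of basal regions (vertical axis, regions) with each combination of libraries, and the filled circles under a bar mark the libraries that listed a peak. The 3 highest bars, 135, 52 and 44 regions, all have a 42 °C peak in both lines, and the 29 and 13 regions with a peak in 1 library at 33 °C alone have none at 42 °C.

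In Q7 cells, 196 of the 211 basal regions with a 33 °C peak, or 92.9% (88.6 to 95.6), also held a Q7 peak at 42 °C. In Q111 cells the corresponding number was 200 of 233, or 85.8% (80.8 to 89.7). Counted over all 307 regions, 251 or 81.8% (77.1 to 85.7) held a Q7 peak at 42 °C and 244 or 79.5% (74.6 to 83.6) a Q111 peak. Over all 6498 regions outside the window these shares were 93.6% for Q7, 31.7% for Q111 and 25.9% for both lines at once. A region that is not basal has a 42 °C peak by construction, so the background for Q7 is close to its ceiling and the members' lower share there is fixed in part by the rule. Most regions entered through the longer Q7 list, which in turn keeps the backgrounds for Q111 and for both lines low.

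Regions with a basal peak in 1 line were followed into the other line at 42 °C. Of the 74 regions with a 33 °C peak in Q7 cells only, 44 or 59.5% (48.1 to 69.9) held a Q111 peak at 42 °C, against the 31.7% of all regions. Of the 96 regions with a 33 °C peak in Q111 cells only, 55 or 57.3% (47.3 to 66.7) held a Q7 peak at 42 °C, against 93.6% of all. The shares lie on opposite sides of their backgrounds, which the rule fixes in part as described. Altogether 96 of the 170 regions occupied in 1 line at 33 °C were occupied in both lines at 42 °C.

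The regions that stood high in every library form the core of the set. The rule for naming them took the 10 regions whose lowest percentile over the 4 libraries was highest, which ran from 99.0 down to 91.5. The first, chr1:55144090-55145522, scored 733 in Q7 and 1230 in Q111 cells at 33 °C, and 3100 in both lines at 42 °C. The second, chr15:81229562-81230934, scored 845 and 1021 at 33 °C for Q7 and Q111, and 3100 in both lines at 42 °C. The third, chr5:125872961-125874491, scored 464 and 1159 at 33 °C and again 3100 in both lines at 42 °C. These 3 regions, together with chr9:40608638-40609973 (396 in Q7 and 1027 in Q111 cells at 33 °C), reached 3100 in both 42 °C lists. That value is shared by many peaks and acts as a near-maximum of the score.

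The other 6 regions of the core stayed below it. Region chr5:31190123-31191287 scored 678 in Q7 and 917 in Q111 cells at 33 °C, and 1713 and 1332 at 42 °C. Region chr11:58115466-58116450 scored 621 and 1258 at 33 °C, and 1396 and 1597 at 42 °C. Region chr10:12642120-12642757, the narrowest of the 10 at 638 bases, scored 508 and 1107 at 33 °C, and 1233 and 1325 at 42 °C. These are regions high in their 33 °C lists but outside the top 100 of either 42 °C list, except that chr11:58115466-58116450 ranked 62 in the Q111 list. Region chr11:106873810-106874616 scored 445 and 883 at 33 °C, and 1077 and 1039 at 42 °C. Region chr3:96303919-96305742 scored 436 and 1046 at 33 °C, and 1788 and 1637 at 42 °C. Region chr11:68853575-68855559 scored 414 and 1508 at 33 °C, and 1477 and 2046 at 42 °C, and was the top peak of the Q111 list at 33 °C. The last 2 regions had other basal regions within 20 kb, and so did chr5:125872961-125874491 of the same core.

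Basal regions stood high in the 42 °C lists, whose scores played no part in the rule. In the Q7 list at 42 °C the 251 basal regions had a median score of 877 (95% interval over regions 632 to 1115, from order statistics), against 173 (169 to 177) for the 5830 regions of that list without a 33 °C peak. The median over all 6081 regions of the list was 179. Of the 251, 120 or 47.8% (41.7 to 54.0) lay in the highest 10% of the list's peaks by score, where 10.0% of all its regions lay. In the Q111 list at 42 °C the 244 basal regions had a median of 682 (586 to 821), against 176 (168 to 185) for the other 1816 regions and 201 over all 2060. Here 97 or 39.8% (33.8 to 46.0) lay in the highest 10%, where 9.47% of all regions of the list lay. Not every basal region was strong: 20 in the Q7 list and 25 in the Q111 list lay below the list's median. No test over regions was made, because regions of 1 library are not replicates.

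The share of basal regions rose along each 42 °C list. For this, the regions of a list, not its peaks, were ordered by score and divided into 10 nearly equal groups. Over all groups together, 251 of 6081 regions of the Q7 list and 244 of 2060 of the Q111 list were basal. Among the 609 Q7 regions with the highest scores, from 955 to 3217, 120 or 19.7% (16.7 to 23.0) were basal. The next 608, down to a score of 485, held 50 or 8.22% (6.29 to 10.7), and the 5 lowest groups held between 0.164% and 0.987%. In the Q111 list, 101 of the 206 highest-scoring regions, or 49.0% (42.3 to 55.8), were basal. The next groups held 21.8%, 17.5% and 13.6%, and the lowest group 1.46% (0.496 to 4.19). The Q111 list is shorter, so its highest group reaches down to a score of 851 over fewer regions, and the percentages of the lists are set side by side without a comparison. In both lists the group with the lowest scores was nearly free of basal regions, with 1 in the Q7 and 3 in the Q111 list.

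**Figure D2:**
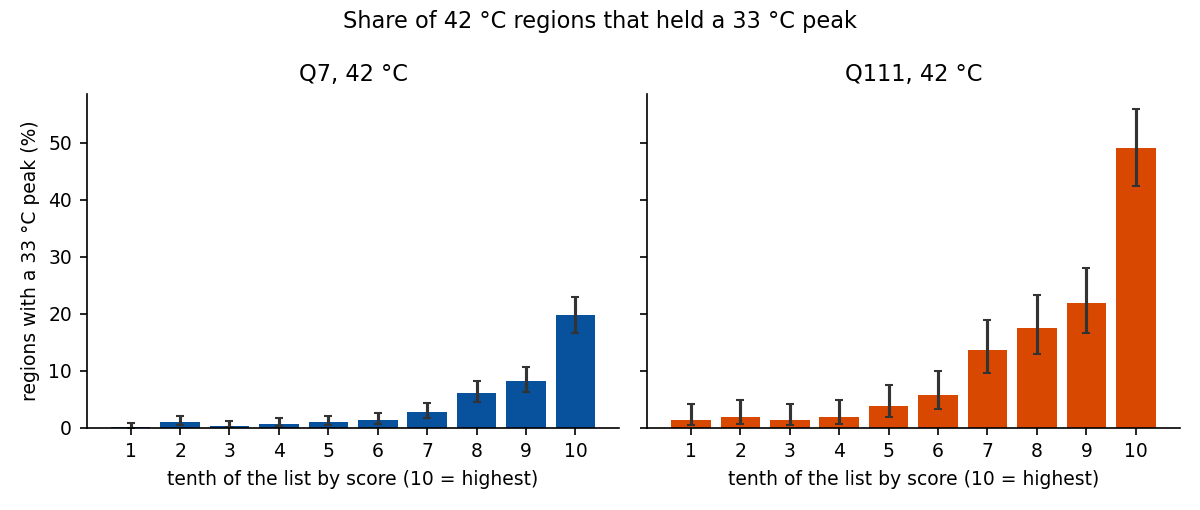
The bars give the percentage of 42 °C regions that were basal (vertical axis) in 10 equal groups of each 42 °C list by score (horizontal axis, 10 highest), for Q7 at the left and Q111 at the right, with 95% Wilson intervals over regions. The share climbs to 19.7% in the highest Q7 group and to 49.0% in the highest Q111 group.

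At the very top of the lists basal regions made up a large part. In the whole lists they were 251 of 6081 regions for Q7 and 244 of 2060 for Q111. Of the 85 regions that scored 3100 or more in the Q7 list at 42 °C, which are 1.40% of its regions, 46 or 54.1% (43.6 to 64.3) were basal. They were 18.3% (14.0 to 23.6) of the basal regions with a Q7 peak at 42 °C. In the Q111 list 12 regions reached 3100, or 0.583% of its regions, and all 12 were basal, an estimate with an interval from 75.8% to 100%. No Q111 region without a 33 °C peak scored above 2427.

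Since basal regions often had a 42 °C peak in both lines, they were also set beside the 1455 regions that were occupied in both lines at 42 °C but in neither at 33 °C. In the Q7 list these scored a median of 544 (510 to 581), against 976 (767 to 1233) for the 231 basal regions occupied in both lines at 42 °C. In the Q111 list the medians were 213 (198 to 225) and 727 (619 to 855). In the highest 10% of the Q111 list lay 6.67% (5.50 to 8.07) of the former and 42.0% (35.8 to 48.4) of the latter. In the highest 10% of the Q7 list the shares were 29.9% (27.6 to 32.3) and 51.5% (45.1 to 57.9). The gap was thus present in both lists also among regions bound in both lines. In the Q7 list it was narrower for the 135 basal regions with a 33 °C peak in both lines. Their median there was 679 (551 to 913), with 39.3% (31.4 to 47.7) in the highest 10%. Both intervals overlap those of the 1455 regions.

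Basal regions with a 42 °C peak in both lines differed among themselves in how they ranked after heat shock. The 44 regions that held a peak in every library except Q111 at 33 °C had a median score of 2603 (1720 to 3100) in the Q7 list at 42 °C. The 135 regions with a peak in all 4 libraries had a median of 679 (551 to 913) there, and the 52 regions in all libraries except Q7 at 33 °C had 973 (583 to 1335). In the same list, 39 of the 44 regions, or 88.6% (76.0 to 95), lay in the highest 10%, compared with 53 of 135, or 39.3% (31.4 to 47.7), and 27 of 52, or 51.9% (38.7 to 64.9). Of the 46 basal regions at 3100 or more, 19 came from the first class, 21 from the second and 6 from the third. The classes overlapped widely, with scores from 405 to 3168 in the first and from 178 to 3209 in the second. The first class leaves out 17 regions with a 33 °C peak in Q7 only whose only 42 °C peak was that of Q7. Their median in the Q7 list was 149 (105 to 198), with 1 of them in the highest 10%. The third class leaves out 3 such regions, with a median of 138. The median of 2603 thus describes the 44 regions that also had a Q111 peak at 42 °C. A median over these 44 and the 17 regions together was not taken.

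These classes lay close together in the Q111 list at 42 °C. Their medians were 702 (442 to 1184) for the 44 regions without a Q111 peak at 33 °C, 693 (536 to 845) for the 135 regions in all 4 libraries and 824 (589 to 1311) for the 52 regions without a Q7 peak at 33 °C. The shares in the highest 10% were 43.2%, 39.3% and 48.1%. Among the 44 regions, 20 lay in the highest 10% of the Q7 but not of the Q111 list, and 0 the other way round. The numbers were 11 and 11 among the 135 regions, 8 and 6 among the 52, and 361 and 23 among the 1455 regions bound in both lines at 42 °C alone. A tilt toward the Q7 list was thus also present without basal occupancy, and the lists differ in length, so these numbers show no change between the lines. The classes differ in their 33 °C peaks, and each also requires a 42 °C peak in both lines. That requirement kept 135 of 137 regions with a 33 °C peak in both lines. It kept 44 of 74 in Q7 only and 52 of 96 in Q111 only. Both 42 °C lists are the same libraries for every class. Whether the difference between the lists would recur in other libraries could not be tested.

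**Figure D3:**
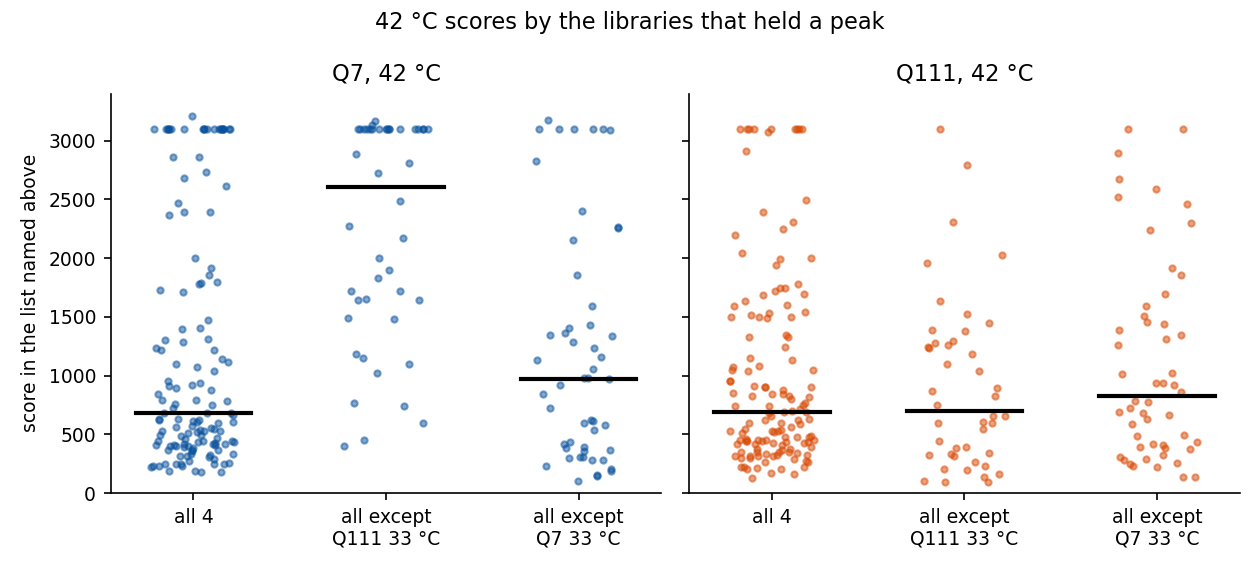
Each point is 1 basal region with a 42 °C peak in both lines, placed by its score (vertical axis) in the Q7 list at the left and the Q111 list at the right, and by the libraries that held a peak (horizontal axis); black lines are medians. The median of the middle class is 2603 in the Q7 list, above 679 and 973 in its neighbours, and 702 in the Q111 list, near 693 and 824.

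The 5 regions with the highest Q7 score at 33 °C among those without a Q111 peak at 33 °C were all in the highest 10% of the Q7 list at 42 °C, and 1 of them was also in that of the Q111 list. Region chr7:29652185-29652997 scored 398 in Q7 cells at 33 °C, 3100 in Q7 at 42 °C and 338 in Q111 at 42 °C. Region chr19:17214669-17215491 scored 265, 3100 and 336 in the same order. Region chr5:152170516-152171809 scored 247, 3100 and 597. All 3 were at the near-maximum of the Q7 list, and none was in the highest 10% of the Q111 list, where they reached percentiles of 67.4, 67.2 and 81.6. Region chr11:56904539-56905924 scored 228, 3100 and 1184, and region chr6:31126365-31126887 scored 327, 1647 and 824. The first of these stood at percentile 93.8 of the Q111 list and the second at 88.8.

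The mirror set, with a 33 °C peak in Q111 cells only, was more mixed. Region chr14:51708822-51709636 had by far the highest 33 °C score of this set, 819 in Q111 cells, and scored 435 in Q7 and 1457 in Q111 at 42 °C. Region chr15:81559605-81560956 scored 334 at 33 °C, 1348 in Q7 and 1024 in Q111 at 42 °C. Region chr3:96301430-96302037 scored 378 at 33 °C, 361 in Q7 and 937 in Q111 at 42 °C. The regions on chromosomes 14 and 3 lay at percentiles 77.5 and 73.4 of the Q7 list and 96.2 and 90.9 of the Q111 list. Region chr12:53704504-53705134 scored 411 at 33 °C, 363 in Q7 and 414 in Q111 at 42 °C. The regions on chromosomes 14, 3 and 12 had close basal neighbours that did hold a Q7 peak at 33 °C. These neighbours lay 36, 1112 and 164 bases away and scored 157, 190 and 144 in Q7 cells at 33 °C. Region chr8:113154157-113155374 scored 417 at 33 °C in Q111 cells and 103 in Q111 at 42 °C, with no Q7 peak at either temperature. Its 33 °C peak was 1218 bases wide and its 42 °C peak 490 bases, and it stood at percentile 79.8 of the first and 11.5 of the second list.

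The order of basal regions at 33 °C was only loosely the order at 42 °C. Over the 196 regions with a Q7 peak at both temperatures, Spearman's rank correlation of the scores was 0.11. Over the 200 regions with a Q111 peak at both temperatures it was 0.31. By contrast, over the 137 regions with a 33 °C peak in both lines the correlation between the lines was 0.58, and over the 231 with a 42 °C peak in both lines it was 0.67. Among the 135 regions with a peak in all 4 libraries the values were 0.21 for Q7 and 0.44 for Q111 between temperatures, and 0.57 and 0.76 between lines. These are descriptions across regions that share a library and its depth, and ties at 3100 blur the upper end.

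**Figure D4:**
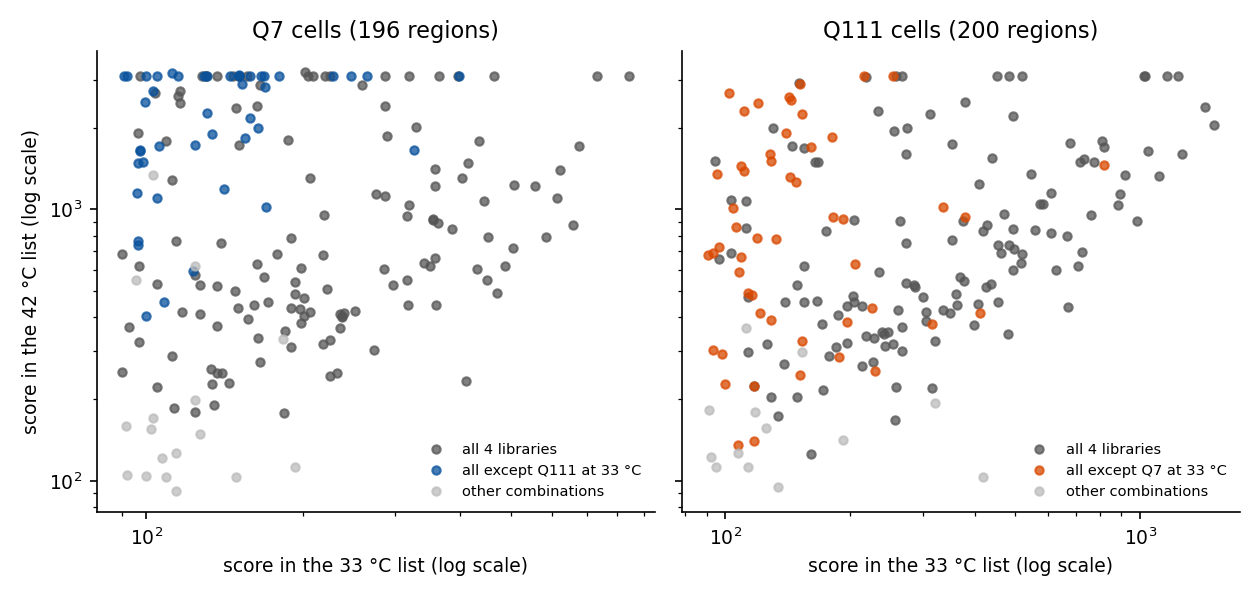
Each point is 1 basal region, placed by its score in the 33 °C list (horizontal, log scale) and the 42 °C list (vertical, log scale) of the same line, Q7 at the left (196 regions) and Q111 at the right (200 regions), and coloured by the libraries that held a peak. Many Q7 regions reach 42 °C scores near 3100 from 33 °C scores of little over 100. The Q111 regions at 3100 had Q111 scores of 216 or more at 33 °C. The rank correlations are 0.11 for Q7 and 0.31 for Q111.

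Some regions with low basal scores had high scores after heat shock. When the 211 regions with a Q7 peak at 33 °C were ordered by that score, the 70 lowest, from 90.0 to 127, held 25 regions that lay in the highest 10% of the Q7 list at 42 °C. The next 70 held 33 such regions and the 71 highest, from 206 to 845, held 35. Median 42 °C scores in these groups were 684 (418 to 1481), 767 (499 to 2171) and 941 (679 to 1233), with intervals that overlap throughout. In Q111 cells the corresponding medians were 540 (304 to 778), 458 (385 to 751) and 860 (695 to 1050). The number in the highest 10% of the Q111 list rose with the basal score, from 13 of the 48 regions with a 42 °C peak to 27 of 74 and 38 of 78. Counted in the same way, the Q7 numbers were 25 of 57, 33 of 68 and 35 of 71.

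Retention and agreement between lines rose with the basal score in both lines. A Q7 peak at 42 °C was listed for 57 of the 70 regions with the lowest Q7 scores at 33 °C, or 81.4% (70.8 to 88.8), for 68 of the next 70, and for all 71 of the highest. In Q111 cells these numbers were 48 of 77, or 62.3% (51.2 to 72.3), 74 of 78, and all 78. A 33 °C peak in the other line was present in 24 of 70, 47 of 70 and 66 of 71 regions by Q7 score. By Q111 score the numbers were 13 of 77, 52 of 78 and 72 of 78. Low scores lie near the limit of the lists, where a small loss of signal removes a peak, and the part of this in the trend was not tested.

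In 43 basal regions, or 14.0% (10.6 to 18.3), no 42 °C peak was listed in either line. They comprised 13 regions with a peak in Q7 cells alone, 29 in Q111 cells alone and 1 in both lines at 33 °C. All of them scored low before heat shock, with at most 146 in Q7 and 178 in Q111 cells and medians of 102 and 104. The highest in Q7 cells were chr3:87709923-87710288 with a score of 146, chr15:72398970-72399284 with 130 and chr12:29320621-29320997 with 119. The highest in Q111 cells were chr14:51427028-51427532 with 178, chr15:32930312-32930796 with 146 and chr13:109610016-109610559 with 137. None of these 6 regions stood above the middle of its 33 °C list, the highest percentile being 44.6. None had another basal region within 20 kb.

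In a further 20 basal regions the only 42 °C peak was that of Q7 cells, 17 of them with a 33 °C peak in Q7 only and 3 in Q111 only. The highest in the Q7 list at 42 °C was chr8:125572026-125572705, with 103 at 33 °C and 1335 at 42 °C. It was followed by chr15:64454074-64454823 with 124 and 619, chr2:59031217-59031735 with 95.6 and 547, chr3:96961871-96962366 with 183 and 333, and chr1:4847526-4847978 with 124 and 198. Only the first was in the highest 10% of that list, and the 17 regions had a median of 149 (105 to 198) there. Conversely, 12 regions with a 33 °C peak in Q111 cells only and a 42 °C peak in Q111 cells only had a median score of 134 in the Q111 list at 42 °C.

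The threshold of the rule is the lowest score that the authors listed. Just inside it lay chr6:29338517-29339202 and chr14:51710001-51710688, each with 90.0 in Q7 cells at 33 °C, and chr9:102665388-102666384 and chr14:47972676-47973121, each with 90.5 in Q111 cells. The first 2 also held peaks in the other 3 libraries. The region on chromosome 9 scored 2397 in Q7 and 680 in Q111 cells at 42 °C, at percentile 97.9 of the Q7 list, and the last had no other peak. Peaks just outside the threshold have no listed values. The edge of the chromosome 13 window touched no region, the nearest basal region starting 5294 kb away.

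Basal regions were wider than the rest, with a median of 694 bases (quartiles 571 and 883.5) against 489 bases (389.5 and 606.5) for regions with a 42 °C peak only. Merging more libraries widens a region, so single peaks are the better measure. In the Q7 list at 42 °C, peaks in basal regions had a median width of 655 bases, compared with 491 bases in other regions, and in the Q111 list 564 and 425.5 bases. Width goes with score. In the highest of the 10 groups by score the medians were 866 and 709 bases in the Q7 list, and 691 and 623 bases in the Q111 list. In the group below it the peaks were of nearly the same width, 626 and 616 bases in the Q7 list and 538 and 553 bases in the Q111 list. Whether the gap in the highest group goes with score inside that group was not tested.

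Distances between peak centres were taken within merged regions, whose peaks overlap by construction, so they are short in part for that reason. In basal regions the centres of the 33 and 42 °C peaks were a median of 56.75 bases apart in Q7 cells (quartiles 29.4 and 102) and 58.5 bases apart in Q111 cells (25.4 and 100). They lay within 100 bases of each other in 147 of 196 and 150 of 200 regions, or 75% in each line. The 42 °C peak was the wider one in 165 of 196 regions in Q7 cells, or 84.2% (78.4 to 88.6), by a median of 212 bases. In Q111 cells it was the wider one in 87 of 200 regions, or 43.5% (36.8 to 50.4), with a median difference of -28 bases between 42 and 33 °C. The 33 °C peak lay wholly inside the 42 °C peak in 68.4% (61.6 to 74.5) of regions in Q7 and 23.0% (17.7 to 29.3) in Q111 cells. Width depends on depth and enrichment, both unknown, and their part was not tested.

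The widest basal region was chr17:45709152-45711784, with 2633 bases. It held peaks with scores of 151 in Q7 and 258 in Q111 cells at 33 °C, and 3100 in both lines at 42 °C, where the peaks spanned 2633 and 1930 bases. Next came chr11:68853575-68855559, described above, with 1985 bases and 8 peaks in the 4 lists. Narrower than these was chr11:68875478-68877354, with 1877 bases and scores of 329 and 1429 at 33 °C and 2004 and 2390 at 42 °C. Besides the second of these, 2 more regions held 8 peaks. Region chr1:173031798-173033547 scored 358 and 439 at 33 °C and 1216 and 1544 at 42 °C, and chr6:128709993-128711148 scored 185 and 213 at 33 °C and 355 and 439 at 42 °C, each with 2 peaks in every library. At least 2 peaks of 1 library were found in 26 basal regions, or 8.47% (5.84 to 12.1), compared with 0.554% of all regions outside the window. Among the 307, at least 2 peaks were listed in 14 regions for Q7 and 8 for Q111 at 33 °C, and in 12 and 15 at 42 °C. Regions held by more libraries had more chances to show this. A region with a single peak cannot show it, which holds for 42 of the 307 basal regions and 4736 of the 6191 others. The low background is thus fixed in part by the merging.

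Close neighbours were most frequent among basal regions occupied in both lines at 33 °C. Another region of any kind lay within 500 bases of 39 of the 307, or 12.7% (9.43 to 16.9), compared with 4.28% of all regions outside the window. Another region lay within 20 kb of 135 of the 307, or 44.0% (38.5 to 49.6), compared with 33.1% of all. By class this share was 56.9% (48.6 to 64.9) for regions with a 33 °C peak in both lines, 36.5% (26.4 to 47.9) in Q7 only and 31.2% (22.9 to 41.1) in Q111 only, the last 2 near the background. Within 500 bases the shares were 18.2%, 12.2% and 5.21% in the same order. Another basal region lay within 20 kb of 59 of the 307, or 19.2% (15.2 to 24), compared with 116 of the 6191 regions with a 42 °C peak only, or 1.87% (1.56 to 2.24). These 59 formed 11 pairs and 10 groups of 3 to 5. All 59 held a 42 °C peak in both lines, and 46 of them, or 78.0% (65.9 to 86.6), a peak in all 4 libraries. Among the 248 basal regions without such a neighbour, 89 or 35.9% (30.2 to 42.0) held a peak in all 4 libraries, and the 43 regions without a 42 °C peak were all among them.

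Neighbouring basal regions ranked lower in the Q7 list at 42 °C than those that lay alone. The medians there were 531 (421 to 752) for the 59 grouped regions and 1098 (790 to 1362) for the 192 lone regions with a peak, of which 103 or 53.6% were in the highest 10%. In the Q111 list the medians were 536 (439 to 911) and 692 (597 to 845), with 39.0% and 40.0% in the highest 10%. At 33 °C grouped and lone regions had medians of 273 (229 to 411) and 153 (137 to 188) in Q111 cells, with 17.9% and 9.04% in the highest 10%. In Q7 cells the medians were 190 (150 to 219) and 151 (133 to 165), with overlapping intervals, and the shares 10.2% and 12.3%. The classes differ as well, since only 3 of the 44 regions without a Q111 peak at 33 °C had a neighbour. Among lone regions alone, the Q7 medians at 42 °C were 2724 for that class and 791 for the regions with a peak in all 4 libraries.

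The largest group, on chromosome 11 from 48631711 to 48670842, spanned 39.1 kb and held 5 basal regions, all with peaks in all 4 libraries. Their 33 °C scores ran from 127 to 658 for Q7 and from 155 to 772 for Q111, and their 42 °C scores from 412 to 1855 and from 455 to 1497. Between them lay 2 regions with a 42 °C peak only. The group on chromosome 5 from 125872961 to 125890192 held 4 regions in 17.2 kb, with 42 °C scores of 565 to 3100 in the Q7 list and 441 to 3100 in the Q111 list. A group of 4 on chromosome 11 from 68923647 to 68939045 lacked 1 Q7 peak at 33 °C, and so did those of 4 on chromosome 1 from 172963709 and on chromosome 19 from 12076592. The group of 4 on chromosome 17 from 23683172 to 23687570 lay within 4.40 kb and was complete. Groups of 3 were chr3:96301430-96305742, chr6:128748660-128753439, chr11:68850162-68877354 and chr14:51707985-51710688. In the 10 groups together, 32 of 37 regions were occupied in all 4 libraries, and the other 5 in all except Q7 at 33 °C.

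**Figure D5:**
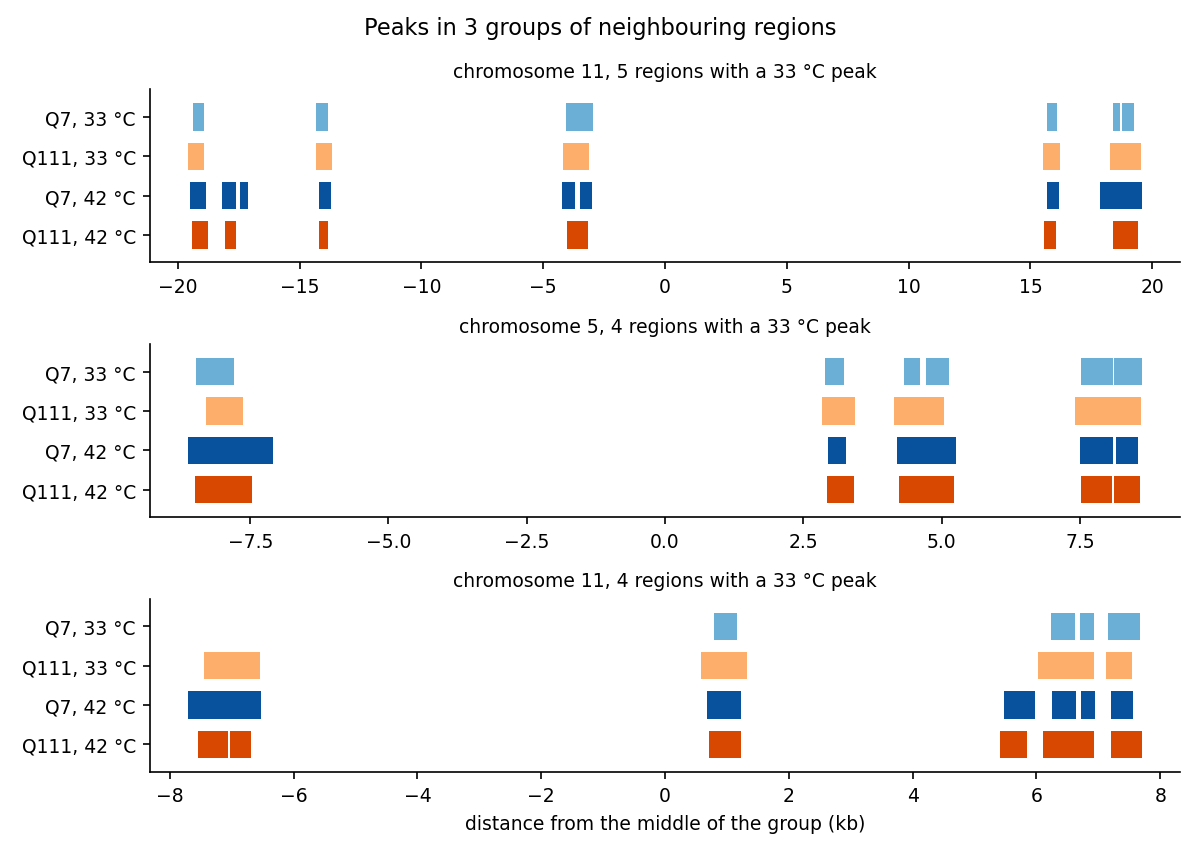
Peaks of the 4 lists (rows) are drawn to scale as boxes along the distance in kb from the middle of each group (horizontal axis), for the 3 groups with most basal regions, on chromosomes 11, 5 and 11, with ties broken by span. The positions recur from library to library, and in the lowest panel the leftmost region has no Q7 peak at 33 °C.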

How the data were processed

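HSF1 ChIP-seq peak lists from 4 libraries were used, 1 list per library, as deposited. Per the submitters' processing notes the tools and builds include MACS 1.4.0rc2 and mm9, and the names of the peaks begin with MACS. The deposited score was read as -10 times log10 of the peak's p-value, an inference, since the lists have no header. For the aligner, the background library, the filters and the number of reads, a value is not given in the sources used here. Depth is therefore unknown and intervals cover counting over regions only.

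Merging, classing and counting were done with scipy 1.17.1, pandas 2.3.3, numpy 2.4.6 and matplotlib 3.10.9 under Python 3.11.15, and the merging was checked on artificial peaks. Closely spaced regions, and several peaks of the same library in a region, were not planted, so the check does not cover them. Shares carry 95% Wilson intervals and medians 95% order-statistic intervals. Planned heat shock element and promoter counts need an mm9 genome and were not run. The gene table at hand is on GRCm38, and coordinates were not moved between builds.

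Members, lists and comparisons were chosen with earlier results of these data known. Regions were named by fixed ranks: highest lowest percentile, highest 33 °C score by line, no 42 °C peak, widest, most peaks, lowest score, and highest Q7 score at 42 °C without a Q111 peak. Groups of neighbours were chosen after their values were seen. Alternatives changed the minimum score, the overlap, the chromosomes and the handling of dense clusters.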

Additional observations from a re-analysis of the deposited data

How the results depend on the processing

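Of 64 planned repeats of the main counts, shares and medians, 55 moved by no more than the reported interval or, for counts, by no more than 1.5 times. A minimum score of 100 moved 1 value, the share of basal regions with a Q7 peak at 42 °C, to 85.7%. A minimum score of 200 moved 8: it left 125 basal regions, 63 of them occupied in both lines at 33 °C and 2 without a 42 °C peak. The shares with a 42 °C peak became 96.8% for Q7 and 97.6% for Q111, the share with a peak in all 4 libraries 49.6%, and the shares in the highest 10% of the 42 °C lists 28.9% for Q7 and 31.1% for Q111. This setting also shortens the 42 °C lists. Joining peaks within 500 bases, asking for 50% of the shorter peak, leaving out the X chromosome, keeping the chromosome 13 window or dropping dense clusters moved none.

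The class medians were repeated under settings chosen after seeing the data, and 46 of 48 stayed within their intervals. With a minimum score of 200, the Q7 median at 42 °C became 917 for regions in all 4 libraries and 494 for those lacking only Q7 at 33 °C. The Q7 median of the regions lacking only a Q111 peak at 33 °C ranged from 2376 to 3100 and was the highest of the 3 classes under every setting tried. With a minimum score of 200 its interval, 418 to 3100, takes in the medians of the other classes. Every setting kept the demand for a 42 °C peak in both lines, so the part of that demand in the order of the classes was not tested. No paired analysis was possible because the labels give no replicate numbers and the scores of different lists are not on 1 scale. Counts of heat shock elements and promoters were not run. Depth is unknown, so a missing peak is not evidence of absent binding.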

Other observations

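Basal regions lay on all autosomes and the X chromosome. As a share of the regions of a chromosome outside the omitted window they ranged from 2.25% (95% Wilson interval 0.618 to 7.83, 2 of 89) on the X chromosome to 8.38% (5.22 to 13.2, 16 of 191) on chromosome 14. Chromosome 11 held the most, 32 of 497 regions or 6.44% (4.60 to 8.95), and 19 of these held a peak in all 4 libraries. Chromosome 6 held 22, with 16 in all 4 libraries, whereas chromosome 15 held 19 with 2 in all 4. On chromosome 13, 6 of 265 regions outside the window were basal, or 2.26% (1.04 to 4.85). These are descriptions, since neighbouring regions are not independent and the chromosomes were ranked after their values were seen.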
